A study of Caenorhabditis elegans with 3 samples.

Results

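The transfer RNA (tRNA) genes of Caenorhabditis elegans were examined for ChIP-seq signal of PQM-1, a zinc finger transcription factor. The members were all 612 genes that Ensembl calls tRNA on the nuclear chromosomes, out of 46890 annotated genes, and each gene was taken with 200 bp on both sides. Membership follows from the annotation, and no measured value decides it, though tRNA genes were taken up with earlier results of these data known. Chromatin came from whole L1 larvae, of mixed sex, of strain OP201, which has the genotype unc-119(tm4063) III; wgIs201 and expresses PQM-1 from the transgene with GFP and FLAG joined to its C terminus. There was 1 group of 3 biological replicates, all of this 1 transgenic line, and no strain without the tag was analysed here. Because whole larvae were used, the peaks do not show in which cells the tagged protein lay. Each replicate and the pooled alignments had a deposited list of exactly 30000 peaks that includes background. A far smaller list held the peaks kept by IDR, a filter on reproducibility between replicates. The depth of the libraries is unknown, since the lists hold no read counts.

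Nuclear tRNA genes are transcribed by RNA polymerase III from a promoter that lies inside the gene. The factor TFIIIC binds 2 short elements there, the A box and the B box, and TFIIIB is then placed just upstream of the gene, where it brings in the polymerase. Transcription stops at a run of T bases shortly after the gene. PQM-1 is known in the worm for acting opposite to the FOXO factor DAF-16 in insulin signalling, and for its link to genes that carry the word TGATAAG, which resembles the site of GATA factors. That word is not an element of the tRNA promoter.

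The loci below are shown because they hold some of the best-ranked summits at tRNA genes, and because each carries its own promoter inside the gene. Each is the gene with 100 bp on both sides, 5′ to 3′ on the strand of the gene, in lower case, with the B box in capitals. The bases and positions are those of RefSeq for WBcel235, which is the ce11 build of the peak lists. They are named loci with a high pooled rank. F57F5.t1 (isoleucine) lies at chrV:12002076-12002360 on the plus strand, R04A9.t1 (glutamine) at chrX:410291-410562 on the plus strand, and Y54G2A.t3 (aspartate) at chrIV:2805527-2805798 on the plus strand. F42A10.t2 (serine) lies at chrIII:6158865-6159150 on the plus strand, C33G3.t2 (lysine) at chrX:14063846-14064118 on the minus strand, and ZK678.t1 (leucine) at chrX:15741950-15742233 on the plus strand. These coordinates include the flanks.
F57F5.t1: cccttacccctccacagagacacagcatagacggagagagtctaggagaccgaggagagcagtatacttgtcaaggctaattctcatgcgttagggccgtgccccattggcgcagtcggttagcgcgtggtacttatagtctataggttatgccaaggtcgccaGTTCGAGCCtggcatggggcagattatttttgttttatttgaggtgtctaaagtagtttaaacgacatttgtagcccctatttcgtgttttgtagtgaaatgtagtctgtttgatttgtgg
R04A9.t1: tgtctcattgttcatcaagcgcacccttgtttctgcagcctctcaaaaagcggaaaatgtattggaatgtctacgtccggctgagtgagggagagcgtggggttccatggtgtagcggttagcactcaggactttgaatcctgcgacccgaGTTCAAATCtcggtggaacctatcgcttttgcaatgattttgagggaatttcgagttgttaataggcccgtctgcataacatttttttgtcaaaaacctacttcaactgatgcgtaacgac
Y54G2A.t3: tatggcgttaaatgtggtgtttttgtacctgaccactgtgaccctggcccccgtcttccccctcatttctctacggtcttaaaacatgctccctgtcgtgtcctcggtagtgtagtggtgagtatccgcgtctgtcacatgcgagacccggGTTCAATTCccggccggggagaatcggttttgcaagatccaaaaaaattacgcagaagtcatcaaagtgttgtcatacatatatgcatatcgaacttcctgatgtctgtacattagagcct
F42A10.t2: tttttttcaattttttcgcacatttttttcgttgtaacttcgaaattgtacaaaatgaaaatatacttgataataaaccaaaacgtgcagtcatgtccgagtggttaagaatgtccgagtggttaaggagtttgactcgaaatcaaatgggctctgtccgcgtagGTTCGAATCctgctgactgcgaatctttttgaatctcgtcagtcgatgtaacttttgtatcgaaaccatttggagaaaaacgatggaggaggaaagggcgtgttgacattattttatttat
C33G3.t2: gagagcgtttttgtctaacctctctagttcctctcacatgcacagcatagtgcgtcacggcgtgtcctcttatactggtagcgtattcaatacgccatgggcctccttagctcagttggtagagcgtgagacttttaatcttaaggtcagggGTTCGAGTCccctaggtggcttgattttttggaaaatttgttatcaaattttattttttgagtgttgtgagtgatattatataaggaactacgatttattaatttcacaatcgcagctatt
ZK678.t1: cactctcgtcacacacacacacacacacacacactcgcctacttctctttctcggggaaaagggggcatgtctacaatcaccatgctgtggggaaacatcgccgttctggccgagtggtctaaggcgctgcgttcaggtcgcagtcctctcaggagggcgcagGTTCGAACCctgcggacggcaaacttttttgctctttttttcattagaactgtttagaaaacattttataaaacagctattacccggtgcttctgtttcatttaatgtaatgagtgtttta
Counted from the first printed base, the pooled summit fell on base 244 at F57F5.t1, base 242 at Y54G2A.t3, base 142 at C33G3.t2 and base 65 at ZK678.t1. At R04A9.t1 and F42A10.t2 it lay beyond the printed bases. So within this set the summit was inside the gene at C33G3.t2, upstream of it at ZK678.t1 and downstream of it at F57F5.t1 and Y54G2A.t3.

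The 612 genes were 64 to 122 bp long, with a median of 72 bp, and the extended windows had a median of 472 bp. They were not 612 independent places. Where windows overlapped, merging them left 530 loci, and 150 genes shared a locus with another tRNA gene. The genes had only 200 distinct sequences, 469 genes had an identical copy elsewhere, and 1 sequence occurred 29 times. How reads from identical copies were placed is not given in the sources used here. RefSeq names an amino acid for 607 of the genes and none for the other 5.

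Peaks were ranked within each list by the signal that the authors' peak caller gave, since the scale of that signal differs between lists. In the pooled list it ran from 225.1 at the top through 34.6 at the last IDR peak and 18.9 at rank 5000 to 10.9 at the end. In replicate 3 it ran from 54.0 through 11.5 and 7.96 at the same ranks to 4.32. A gene was counted when a peak summit within a rank limit fell in its window. The narrowest limit, called the IDR limit, takes as many of the highest peaks of a list as IDR had kept, and in the pooled list these are exactly the IDR peaks. The other limits were the 5000 highest peaks and all 30000. The value set beside each share is that of every placement of a window of the same length along the same chromosome.

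Replicate 3 differed from the other replicates away from tRNA genes too. Of all 19973 protein-coding genes, 7.26% had a top 5000 summit in their promoter window in replicate 3, where 11.9 and 12.1% had one in replicates 1 and 2. Results are therefore given for each replicate, and with and without replicate 3 where they rest on it.

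In replicates 1 and 2 summits were several times as frequent at tRNA genes as at windows of the same length, and in replicate 3 they were not. With the limit of 5000, replicate 1 had a summit at 71 genes, or 11.6% (95% exact binomial interval 9.17 to 14.4), where 2.42% of placements held one. Replicate 2 had one at 93 genes, or 15.2% (12.4 to 18.3), beside 2.40%. Replicate 3 had one at 12 genes, or 1.96% (1.02 to 3.40), beside 2.35%. The share was thus 4.79 times that of placements in replicate 1, 6.33 times in replicate 2 and 0.834 times in replicate 3, and the range of replicate 3 takes in its own background. The pooled list had a summit at 77 genes, or 12.6% (10.1 to 15.5), beside 2.40%. Because neighbouring genes can share a peak, these 77 genes rested on 67 distinct summits, and the 71, 93 and 12 genes of the replicates on 61, 85 and 11. The intervals cover the counting of genes only, and they treat genes as independent.

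The strongest peaks were few at tRNA genes. Within the IDR limit, the pooled list had a summit at 7 genes (1.14%, beside 0.330% of placements), replicate 1 at 10 (1.63%, beside 0.336%), replicate 2 at 22 (3.59%, beside 0.327%) and replicate 3 at 3 (0.490%, beside 0.327%). The ratio was highest in replicate 2, at 11.0, and lowest in replicate 3, at 1.50. The 22 genes of replicate 2 rested on 16 distinct summits, and with loci counted once its share was 3.02%, beside 0.354%. With all 30000 peaks, a summit fell at 212 genes in the pooled list (34.6%, beside 14.1%), 214 in replicate 1 (35.0%, beside 14.2%), 258 in replicate 2 (42.2%, beside 14.0%) and 101 in replicate 3 (16.5%, beside 13.8%). Here the replicates ranked as before, and the ratio ranged from 1.20 in replicate 3 to 3.00 in replicate 2. There was no summit in any of the 4 lists at 223 tRNA genes.

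Over the 3 replicates the mean share was 9.59% ± 6.84 (SD, n = 3) with the limit of 5000, 1.91% ± 1.57 with the IDR limit and 31.2% ± 13.2 with all peaks. The mean difference from placements was 7.19 percentage points with the limit of 5000, from 9.18, 12.8 and −0.389 points in replicates 1, 2 and 3 (two-sided exact sign-flip permutation test over replicates, p = 0.5). It was 1.58 points with the IDR limit (1.30, 3.27 and 0.163; p = 0.25, same exact test) and 17.2 points with all peaks (20.8, 28.1 and 2.70; p = 0.25, same exact test). With 3 replicates this test cannot give a p below 0.25, so no difference in this design can pass 0.05. The differences were positive in replicates 1 and 2 at every limit. In replicate 3 the value with the IDR limit rests on 3 genes, and it was −0.0259 points with windows extended by 100 bp and −0.151 points with 2 times as many peaks. The SD of the differences over replicates was 6.81 points at 5000, close to the mean. Without replicate 3 the mean difference at 5000 was 11.0 points. Without replicate 2 it was 4.39 points.

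The highest densities of replicates 1 and 2 lay close to the gene. In bins of 100 bp along the strand of the gene, top 5000 summits of replicate 2 were 13.4 times the chromosome average in the bin centred 100 bp upstream of the gene centre, 8.63 times in the central bin and 3.52 times in the bin 100 bp downstream. In replicate 1 the same bins held 5.71, 5.40 and 6.03 times the average. In replicate 3 they held 0.655, 0.327 and 0.982 times the average, and its highest ratio, 2.62, was in the bin centred 2000 bp upstream. Farther out the ratios of replicates 1 and 2 were lower. In the bin centred 200 bp downstream they were 2.54 in replicate 1 and 2.24 in replicate 2, and in the bin centred 400 bp upstream 2.22 and 1.60. When all windows were moved together by fixed distances of 5, 10, 20 or 50 kb to either side, between 1.96 and 3.43% of them held a top 5000 summit in replicate 1 and between 1.14 and 3.76% in replicate 2, over the 8 shifts. In replicate 3 the shifted shares, 1.63 to 3.76%, took in the unshifted one.

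**Figure D1:**
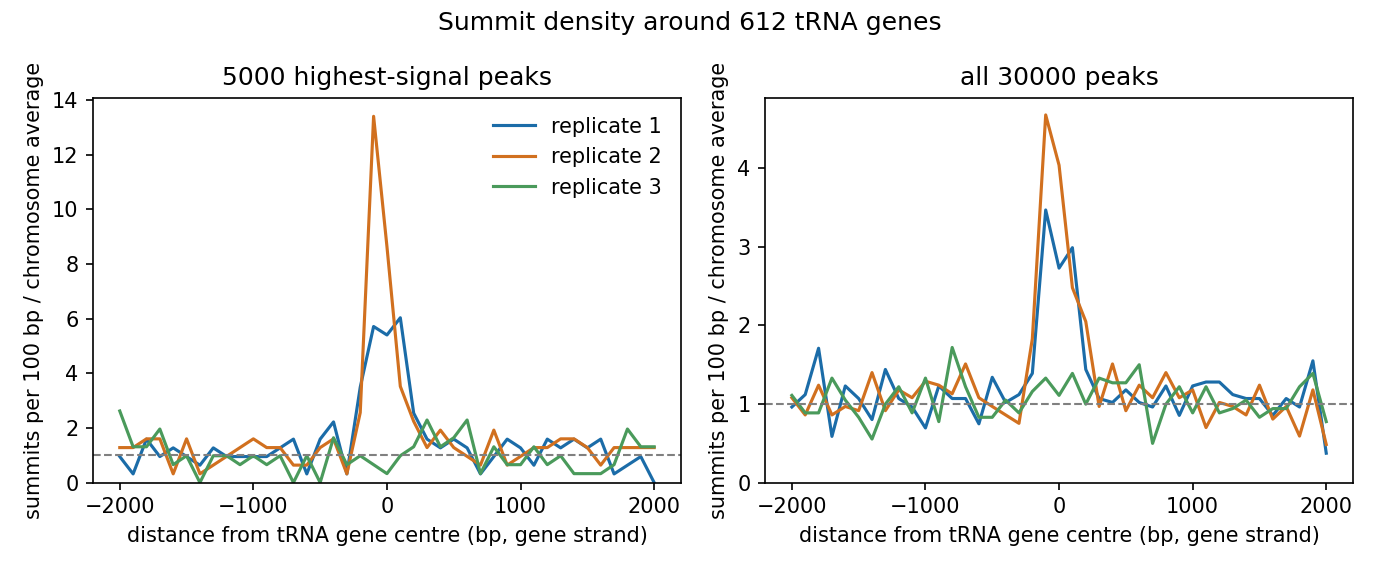
Summits per 100 bp around the centres of 612 tRNA genes, divided by the chromosome average, against the distance in bp along the strand of the gene, for the 5000 highest-signal peaks and for all 30000 peaks of each replicate. The dashed line marks the average; replicate 2 rises to 13.4 and replicate 1 to 6.03 in the left panel, while replicate 3 stays at 0.327 to 0.982 in the 3 bins nearest the gene centre.

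The best summit of a window lay most often upstream in replicate 2 and was spread over both flanks in replicate 1. Of the 93 genes with a top 5000 summit in replicate 2, 52 had it upstream of the gene, 24 inside and 17 downstream, and the median was 16 bp upstream of the 5′ end (−16 bp). Of the 71 in replicate 1, 29 had it upstream, 13 inside and 29 downstream, and the median was 44 bp downstream of the 5′ end. In the pooled list the counts were 37, 16 and 24, with a median of 6 bp. The gene takes up 15.8% of the window, and the share of best summits inside it was 20.8% in the pooled list, 18.3% in replicate 1 and 25.8% in replicate 2. At the 12 genes of replicate 3 the best summit lay farther out, with 4 upstream, 1 inside and 7 downstream and a median of 121 bp. The median peak width was 290 bp in the pooled list and 330, 310 and 240 bp in the replicates.

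The replicates overlapped in part in the tRNA genes that they marked. With the limit of 5000, 2 genes were marked in all 3 replicates, 29 in 2, 112 in 1 and 469 in none. A gene counted as shared wherever in its window the summits lay, so they need not be the same peak. At C16C8.t1, marked in all 3, the summit of replicate 1 lay on the other side of the gene. Replicates 1 and 2 shared 30 genes, which were 42.3% of those of replicate 1 and 32.3% of those of replicate 2. Among protein-coding genes with the same 200 bp added, they shared 1169, of 2905 marked in replicate 1 and 2896 in replicate 2. Of the 30 tRNA genes, replicate 3 held 2 (6.67%), where the same count was 5 of 20 for snoRNA genes, 3 of 8 for snRNA genes and 527 of 1169 (45.1%) for protein-coding genes. Over the whole of each class, replicate 3 had a top 5000 summit at 1.96% of tRNA, 4.91% of snoRNA, 4.65% of snRNA and 16.7% of protein-coding genes. Windows of protein-coding genes span whole genes and are longer. In replicate 3, 14.7% of their placements held a top 5000 summit, beside 2.35% for tRNA windows, so the shares of these 2 classes are not on 1 scale. Few genes stand behind the noncoding counts, and the differences between these shares were not tested. Of the 77 genes of the pooled list, 41, 46 and 5 were among the top 5000 of replicates 1, 2 and 3, and 15 were in none of them. Replicate 3 marked only 12 tRNA genes, beside 71 and 93 in replicates 1 and 2, which limited its overlap with the pooled list.

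The 7 tRNA genes that hold the summit of an IDR peak are described first, by pooled rank. F57F5.t1, an isoleucine tRNA gene of a sequence found once in the genome, at chrV:12002176-12002260, had pooled rank 199 and signal 49.8, and ranks 652, 75 and 171 in replicates 1, 2 and 3 (signals 19.2, 21.4 and 14.2). It was the only tRNA gene within the IDR limit in all 3 replicates. Its summit lay 143 bp downstream of the 5′ end, and so past the gene, in the promoter windows (1000 bp upstream to 200 bp downstream of a 5′ end) of cpr-9, named as a cathepsin B-like protease gene, and gcy-33, named as a guanylyl cyclase gene. B0350.t1 (lysine, chrIV:5967160-5967232) had pooled rank 346 and signal 42.7, ranks 267 and 222 in replicates 1 and 2, and no summit in replicate 3. C12C8.t2 (glycine, chrI:9327637-9327708) had pooled rank 376 and signal 41.8, ranks 236 and 918, and none in replicate 3, with a summit 271 bp from the 5′ end in the promoter window of cbl-1. C16C8.t1 (lysine, chrII:3439394-3439466, minus strand) had pooled rank 391 and signal 41.4, and ranks 1244 and 60 in replicates 1 and 2, and in replicate 3 its summit was the last within the IDR limit. Its summit lay at −145 bp in the pooled list and at −132 and −166 bp in replicates 2 and 3. In replicate 1 it lay at 88 bp, on the other side of the gene. C16C8.t1 and F57F5.t1 were the only genes of the 7 with any summit in replicate 3.

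The other IDR summits at tRNA genes had no partner in replicate 3. R04A9.t1 (glutamine, chrX:410391-410462) had pooled rank 392 and signal 41.4, and ranks 1035 and 91 in replicates 1 and 2, with the summit at the edge of its window, 200 bp upstream (−200 bp), in the promoter window of ZK1193.2. Y54G2A.t3 (aspartate, chrIV:2805627-2805698) had pooled rank 414 and signal 40.7, and ranks 349 and 217, with the summit in the promoter window of Y54G2A.45. T21B4.t1 (isoleucine, chrII:12494741-12494814, within col-85, a collagen gene on the opposite strand) had pooled rank 616 and signal 35.8, and ranks 458 and 1632. Only at T21B4.t1 did the pooled summit lie inside the tRNA gene, 66 bp from its 5′ end. At 4 of the 7 genes the summit was in a promoter window of a protein-coding gene, which leaves B0350.t1, C16C8.t1 and T21B4.t1 with the summit in none.

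Below the IDR limit most summits at the named loci lay nearer to the tRNA gene. W03G11.t1 (lysine, X) had ranks 2035, 879 and 23594 in replicates 1, 2 and 3, and pooled rank 748, with the pooled summit at −33 bp. T28F2.t1 (methionine, I) had ranks 728 and 4372 and pooled rank 849, with the summit at 38 bp, in the promoter window of T28F2.1. M02F4.t1 (glycine, X) had ranks 4992 and 144 and pooled rank 907, with the summit at −49 bp. The replicates thus differed by more than 10-fold in rank at M02F4.t1. C33G3.t2 (lysine, X) had ranks 314 and 1532 and pooled rank 943, with the summit at 41 bp. ZK678.t1 (leucine, X) had ranks 1420 and 577 and pooled rank 967, with the summit at −36 bp, in the promoter window of nhr-255. R11.t1 (tyrosine, X) had ranks 454 and 3027 and pooled rank 1087, with the summit at −37 bp. Of these, only W03G11.t1 had a summit in replicate 3. F42A10.t2 (serine, III), in contrast, had its pooled summit (rank 815) 271 bp from the 5′ end and past the gene, in the promoter window of nfm-1, with rank 1752 at a place 72 bp upstream (−72 bp) in replicate 1 and no summit in replicates 2 and 3.

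The remaining loci of the 20 with the best pooled rank were F01G12.t1 (965), C28G1.t1 (1129), C16B8.t2 (1323), W09G10.t3 (1363), W09D6.t2 (1434) and C53C7.t1 (1486). Among them W09D6.t2, a proline gene in an intron of rsa-2 on chromosome III, had ranks 751 and 1636 in replicates 1 and 2 and none in replicate 3. At C28G1.t1 the pooled summit lay in the promoter windows of C28G1.2 and sec-15, and at W09G10.t3 in that of clec-126. The glutamate gene F01G12.t1, in an intron of sur-7, ranked below 5000 in every replicate, at 6052, 5187 and 9319, although its pooled rank was 965. Of the 30 tRNA genes with a summit in all 3 replicates, the loci with the best mean rank were F57F5.t1 (299.3 ± 309.2, SD, n = 3) and C16C8.t1 (662.0 ± 592.3), followed by C28G1.t1, F01G12.t1 and F02D10.t2. These means take the best summit of each replicate wherever it lies in the window, and at C16C8.t1 that of replicate 1 lay elsewhere. At C28G1.t1, a glutamate gene on X, the ranks were 669, 2337 and 9500, with the summits at 44, −109 and 3 bp. At F02D10.t2, a serine gene on X, they were 6561, 9604 and 4796, which made it the only named gene whose best rank was in replicate 3.

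**Figure D2:**
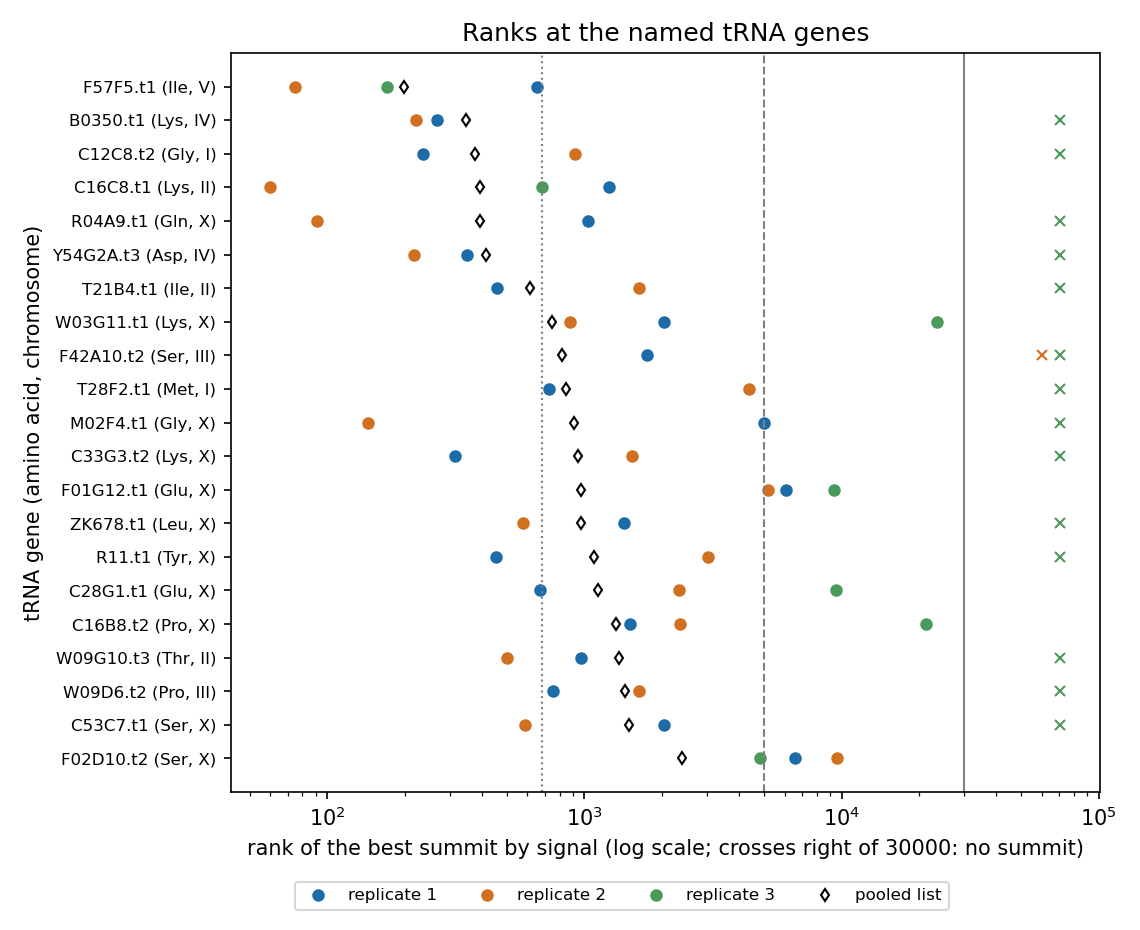
Rank of the best summit (log axis, a lower rank is a higher signal) at the named tRNA genes in each replicate (filled circles) and in the pooled list (open diamonds), with lines at the IDR limit, 5000 and 30000 and crosses where a replicate had no summit. Replicates 1 and 2 lie mostly left of 5000, while replicate 3 lies left of 5000 only at F57F5.t1, C16C8.t1 and F02D10.t2.

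Among other noncoding genes, snoRNA and snRNA genes had shares like those of tRNA genes. Since window lengths differ between gene classes, each class is given beside its own placements. With the limit of 5000, the 346 snoRNA genes, which guide modification of other RNAs, had a summit at 12.7, 14.5 and 4.91% of genes in replicates 1, 2 and 3, which was 4.81, 5.47 and 1.83 times the share of placements. The 129 snRNA genes, which encode splicing RNAs, had one at 11.6, 12.4 and 4.65%, or 4.67, 4.99 and 1.88 times. The 261 miRNA genes went the other way, with 1.92, 4.21 and 8.05%, or 0.766, 1.70 and 3.25 times. For the 7764 genes of the class ncRNA the ratios were 2.07, 2.51 and 1.75, and for the 15363 piRNA genes they were 0.911, 0.490 and 0.262. The ratios were 1.93, 2.50 and 0.541 for 194 lincRNA genes, 1.11, 1.44 and 0.945 for 100 antisense RNA genes and 0.513, 0.534 and 0.823 for 2128 pseudogenes, and none of 20 rRNA genes had a summit. A ratio lower in replicate 3 than in replicates 1 and 2 was thus also seen at snoRNA, snRNA, ncRNA, lincRNA, antisense RNA and piRNA genes. Of these, snoRNA, snRNA and ncRNA genes stayed above their placements in replicate 3. The lincRNA and antisense RNA genes fell below theirs, as tRNA genes did, and piRNA genes lay below in every replicate. At miRNA genes and pseudogenes the ratio was highest in replicate 3.

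The mean difference between the tRNA share and that of all 26305 other noncoding genes was 6.44 points at 5000 (8.10, 11.7 and −0.522 points; exact sign-flip permutation p = 0.5). Against snoRNA genes alone it was −1.11 points (−1.12, 0.745 and −2.95; exact p = 0.5), and against snRNA genes alone 0.0253 points (−0.0266, 2.79 and −2.69; exact p = 1.0). The SD of the difference was 1.85 points for snoRNA and 2.74 points for snRNA genes, so neither mean was larger than the spread between replicates. Of these other genes 15363 are piRNA genes. Without piRNA genes the difference at 5000 was 3.57 points, and it was 0.773 points with the IDR limit and 5.95 points with all peaks, where it had been 1.37 and 15.4 points with them. In all, 36 comparisons were made over the gene classes and rank limits, and the lowest adjusted p (Benjamini-Hochberg, exact test) was 0.581.

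Genes that RefSeq calls tRNA pseudogenes, a set added after the results were seen, resemble tRNA genes in sequence. They number 209, and with the limit of 5000 they had a summit at 3.83, 2.39 and 3.35% of genes in replicates 1, 2 and 3, beside 2.28, 2.26 and 2.27% of placements. The tRNA genes were higher by 7.77 and 12.8 points in replicates 1 and 2 and differed by −1.39 points in replicate 3, with a mean of 6.40 points (exact sign-flip permutation p = 0.5).

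**Figure D3:**
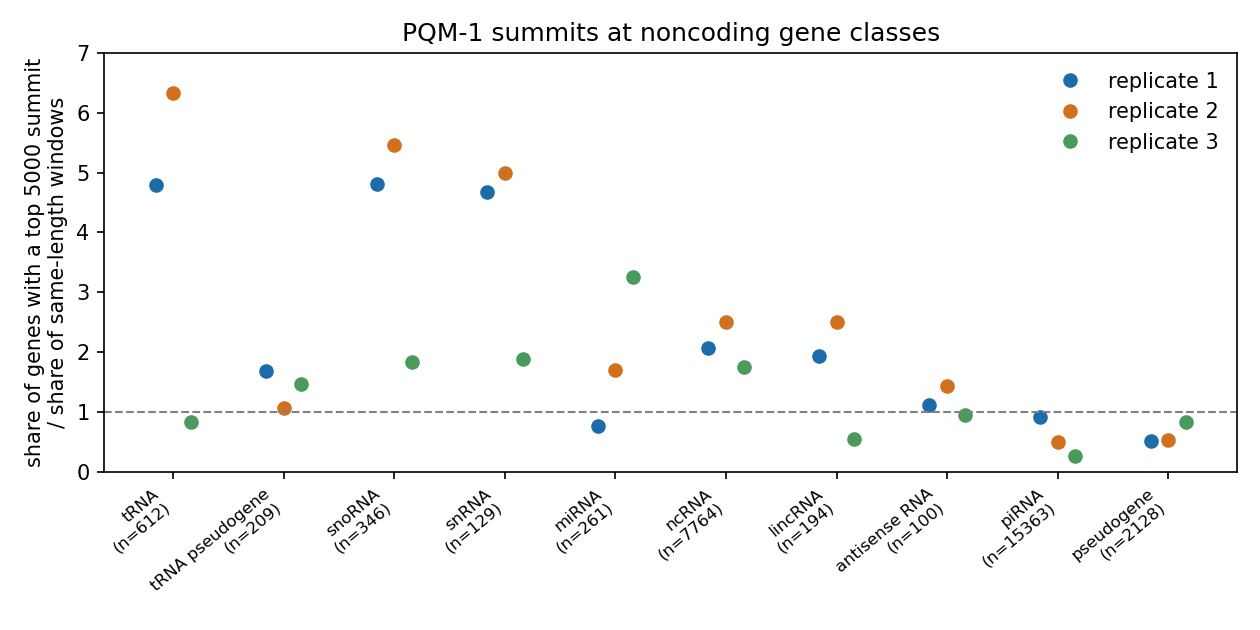
Share of genes with a top 5000 summit in the gene extended by 200 bp, divided by the share of same-length windows on the same chromosomes, for tRNA genes and other noncoding gene classes, with 1 point per replicate and n the number of genes. The dashed line marks equality; tRNA genes reach 4.79 and 6.33 in replicates 1 and 2 and 0.834 in replicate 3, and snoRNA genes reach 4.81, 5.47 and 1.83.

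In replicates 1 and 2 the promoter, intron and intergenic settings all had shares above the 2.42 and 2.40% of placements over whole chromosomes. The background of promoter or intron windows by themselves was not measured. A window counted under promoter when it touched the promoter window of a protein-coding gene, which was so for 193 genes. With the limit of 5000 these had shares of 14.5, 18.1 and 2.07% in replicates 1, 2 and 3. The 204 genes in introns had 8.82, 13.7 and 1.47%, and the 212 intergenic ones had 11.8, 14.2 and 2.36%. The 3 genes in exons had no summit. The 419 genes whose windows touched no promoter window had 10.3, 13.8 and 1.91%. Within the IDR limit of the pooled list 5 of the 7 genes were of the promoter kind.

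The X chromosome carries 276 of the 612 tRNA genes, more than any autosome. With the limit of 5000 its share was 14.5, 13.4 and 1.45% in replicates 1, 2 and 3, and that of the 336 autosomal genes 9.23, 16.7 and 2.38%. X was higher in replicate 1 and lower in replicates 2 and 3, so the replicates gave no single order. Among autosomes the 57 genes of chromosome II had 10.5, 26.3 and 1.75%, and the 71 genes of chromosome IV 8.45, 9.86 and 2.82%.

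With the limit of 5000, genes with and without identical copies both had shares above placements in replicates 1 and 2. The 143 genes with a sequence of their own had shares of 9.79, 13.3 and 2.80% in replicates 1, 2 and 3, the 152 genes of a sequence with 2 to 9 copies had 9.87, 19.1 and 0.658%, and the 317 genes of a sequence with 10 or more copies had 13.2, 14.2 and 2.21%. With all peaks of replicate 2 the shares were 28.0% for genes with a sequence of their own, 76 of 152 for those with 2 to 9 copies and 44.8% for those with 10 or more. For the genes with a sequence of their own the difference from placements in replicate 2 was 14.0 points, where it was 28.1 points for all tRNA genes. Genes in loci of 2 or more tRNA genes, which can share a peak, had 17.3, 15.3 and 2.00%, and single genes had 9.74, 15.2 and 1.95%. Of the 25 identical lysine genes that include B0350.t1, 4, 7 and 1 had a top 5000 summit in the 3 replicates. Of the 21 identical aspartate genes 2, 0 and 0 did. Copies with the same gene sequence thus differed among themselves in whether a summit was listed.

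By amino acid, glutamate genes had the highest pooled share among families of 20 or more genes, with 11 of 41 genes (26.8%) in the top 5000, and 19.5, 17.1 and 9.76% in replicates 1, 2 and 3. Lysine genes followed with 8 of 46 (17.4%), and 13.0, 21.7 and 2.17% in the replicates. Proline genes had 21.4, 14.3 and 0%. Glycine genes, the largest family with 55 genes, had 9.09, 3.64 and 3.64%. The order of the families changed from replicate to replicate, and these counts were not tested.

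**Figure D4:**
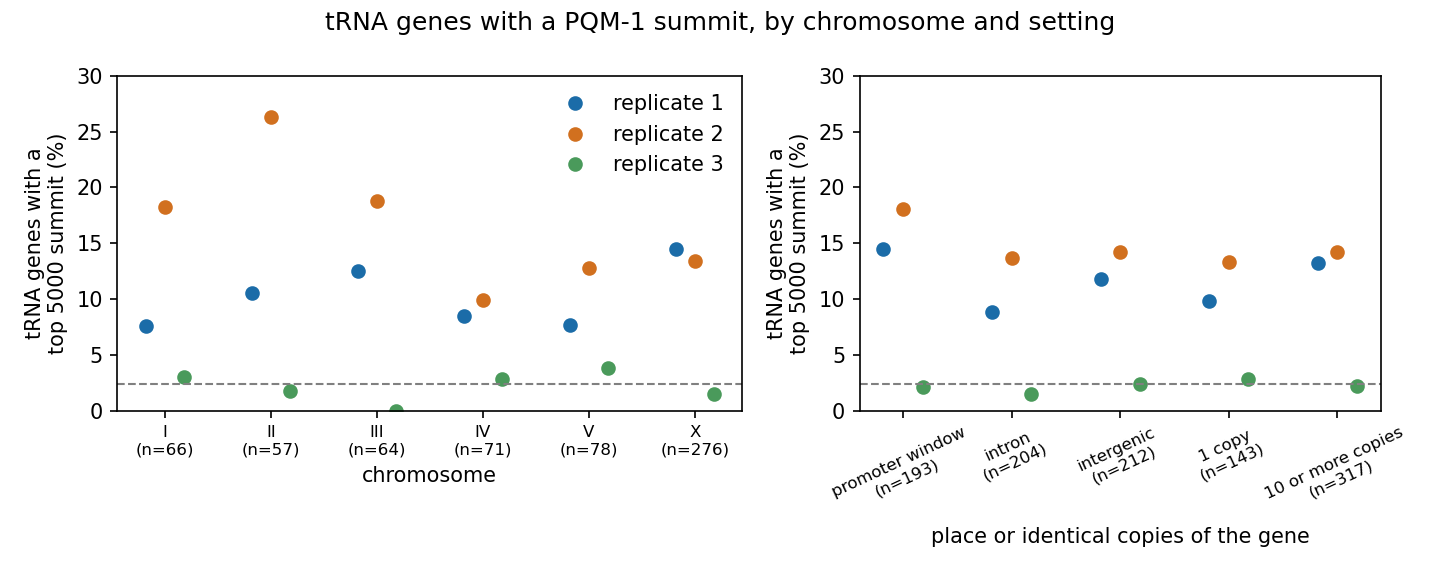
Percent of tRNA genes with a top 5000 summit in each replicate, by chromosome (left) and by place or number of identical copies (right), with n the number of genes. The dashed line is the share of placements in replicate 1, 2.42%; replicates 1 and 2 lie above it in every class plotted, which leaves out the 3 genes in exons, and replicate 3 lies between 0 and 3.85%.

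A B box was found in most members, and about as often in genes with a pooled summit as in those without. A B box word, GTTCGANNC or GTTCAANNC on the strand of the gene, was found in 587 of 612 genes (95.9%), in 78.9% of tRNA pseudogenes and in 0.750% of genome windows of the median gene length. In the pooled list it was in 94.8% of the 77 genes with a top 5000 summit and in 96.1% of the 535 without one. The A box was searched as 1 strict consensus word, so an A box that differs from it at any fixed base was not counted. That word was found in 110 of 612 tRNA genes and in 36.8% of tRNA pseudogenes, and these are not the shares of genes with an A box. It was in 19.5% of genes with a top 5000 summit and 17.8% of those without in the pooled list, in 22.5 and 17.4% in replicate 1, and in 25.8 and 16.6% in replicate 2, with no test. A run of TTTT within 30 bp after the gene, a search added once the sequences had been seen, was found at 98.9% of tRNA genes, 91.9% of tRNA pseudogenes and 36.1% of genome windows of that length. The B box and the T runs can be followed in the sequences printed above.

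In the pooled list GATA words had a lower share at tRNA summits than at the other summits. Both strands were searched for each word to 50 bp on either side of a summit, among the 5000 highest pooled peaks. TGATAAG, which contains the shorter word TGATAA, was near 4 of 67 tRNA summits, or 5.97% (95% exact interval 1.65 to 14.6), near 15.2% (14.2 to 16.2) of the 4933 others and in 1.72% of genome windows of that length. The sequence GATA, with A or T before it and A or G after it, makes 4 words of which TGATAA is 1. Any of these 4 words was near 17.9% (9.61 to 29.2) of tRNA summits, near 40.6% (39.2 to 42.0) of the others and in 19.8% of genome windows. The share of the 4 words at tRNA summits was thus close to that of the genome. A B box word was near 29.9% of tRNA summits, 1.97% of the others and 2.16% of genome windows. Because tRNA summits lie in tRNA windows by choice, and 95.9% of tRNA genes carry such a word, an excess follows from that choice. The choice bears on the GATA words too, since the bases searched at many tRNA summits include part of the tRNA gene. How often GATA words occur in tRNA windows without a summit was not measured.

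Most of the few TGATAAG words lay at the strongest tRNA summits. Within the IDR limit 3 of 7 tRNA summits had it within 50 bp, beside 38.1% of the others. Beyond the IDR limit and up to rank 5000, a division added after the results were seen, 1 of 60 tRNA summits (1.67%) had it, beside 11.6% of the 4258 others. The 4 words together were near 15.0 and 35.7% of summits at these ranks.

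The replicates did not all show this. The 4 words were near 21.3% of the 61 tRNA summits in the top 5000 of replicate 1 and 36.7% of the others, and near 17.6% of 85 and 35.8% in replicate 2. In replicate 3 they were near 3 of 11 tRNA summits (27.3%) and 23.9% of the others. The mean difference was −10.0 points ± 11.7 (SD, n = 3; exact sign-flip permutation p = 0.5). For TGATAAG alone the differences were −3.79, −8.54 and 20.9 points, the last from 3 of 11 tRNA summits beside 6.37% of the others. Its mean was 2.86 points ± 15.8 (SD, n = 3; exact sign-flip permutation p = 1.0), opposite in sign to the pooled list, and replicate 3 alone had the opposite sign among the replicates.

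Genes for the machinery around tRNA were looked up by a summit in their promoter windows, where 11.5% of all 19973 protein-coding genes had a top 5000 summit in the pooled list and 11.9, 12.1 and 7.26% in replicates 1, 2 and 3. None of 11 genes for RNA polymerase III and its factors had one in any list, among them rpc-1 (the largest subunit), brf-1 (a TFIIIB subunit) and mafr-1 (the homologue of the repressor Maf1). Of 32 aminoacyl-tRNA synthetase genes, whose products charge tRNAs with amino acids, 6, 2 and 5 had one in replicates 1, 2 and 3, and 6 in the pooled list. The best of them in the pooled list was qars-1, for glutamine, with rank 1940, ranks 9112 and 1026 in replicates 1 and 3 and no summit in replicate 2. Within single replicates fars-2 (869 in replicate 3) and ears-2 (896 in replicate 1) ranked higher. The best rank of qars-1 was in replicate 3, where among the named tRNA genes only F02D10.t2 had its best. Of 8 genes for tRNA processing and export, elpc-1, a subunit of the Elongator complex that modifies tRNA, had rank 1856 in replicate 2 and no summit elsewhere, and no other had a top 5000 summit. Of 19 other genes read by RNA polymerase III, only rpr-1, the RNA of RNase P, had one, with rank 3455 in replicate 2. Most of the 19 are copies of 5S rRNA genes, which had no summit in any list, and no snRNA gene is among them. How reads from such copies were placed is not given in the sources used here, so this count says little about other genes of this polymerase.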

How the data were processed

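PQM-1 was measured by ChIP-seq in 3 replicates of 1 group, and chromatin was sonicated, per the labels. The authors called peaks for every replicate and for the pooled reads, using 1 control file that was not analysed here, per the README of the samples. The caller, aligner and IDR cut-off were not given in the sources used here. Peak strength is the signal in column 7, deposited as the authors' caller wrote it, and it served for ranks within a list. The ce10 lists were not used. Depth is unknown, and replicates may differ technically as well as biologically.

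Genes came from Ensembl release 115 (WBcel235), and amino acids, tRNA pseudogenes and positions from RefSeq, where all 612 tRNA genes matched. Shares were compared with every placement of each window on its chromosome, in place of random shifts. The only test was an exact sign-flip permutation over replicates, two-sided, with Benjamini-Hochberg adjustment over 36 comparisons. Named genes were the nearest gene at the 20 loci with the best pooled rank, genes with an IDR summit and the 5 loci with the best mean replicate rank. The members, gene lists, words and limits were chosen with earlier results of these data known. One gene of the lists, trmt-1, had no entry in the annotation. No sequence is printed from chromosome I, or of a gene with an identical copy there. Scripts were tested on simulated peaks. Python 3.11.15, pandas 2.3.3, numpy 2.4.6 and SciPy 1.17.1 were used.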

Additional observations from a re-analysis of the deposited data

How the results depend on the processing

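Of 161 alternative values, 139 were judged the same as the main value, 14 shares moved beyond the spread and 8 differences changed sign. Differences were judged by sign alone, since no p could pass 0.05. Shares were judged by the SD over replicates or the exact binomial interval. Leaving out 1 of 3 replicates cannot move a mean by a whole SD, so the verdict of same was fixed in advance for those means. The count of 139 includes them. No paired analysis was possible because the samples form 1 group. The pooled share with the IDR limit was 0.163% with 0.5 times as many peaks and 3.43% with 2 times as many. At 5000 it was 9.64 and 16.2% with windows extended by 100 and 500 bp, and 7.68 and 19.6% with 0.5 and 2 times as many peaks. With all peaks it was 27.0 and 49.0% with 100 and 500 bp, 28.7% for genes of unique sequence and 40.2% with any base of the peak, and the replicate mean was 46.2% with 500 bp. The difference from other noncoding genes changed sign against these classes taken alone. With the IDR limit it was −0.502 points for snoRNA, −1.71 for snRNA and −1.70 for lincRNA genes; at 5000 it was −1.11 for snoRNA and −2.79 for lincRNA; with all peaks it was −8.65 for lincRNA, −2.79 for antisense RNA genes and −1.51 for pseudogenes. TGATAAG was near 1.49% of tRNA summits within 25 bp, and within 100 bp TGATAA was near 28.4% and the 4 words near 40.3%.

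Leaving out 1 replicate gave mean shares of 1.06 to 2.61% with the IDR limit, 6.78 to 13.4% at 5000 and 25.7 to 38.6% with all peaks. The difference from placements ranged from 0.730 (without replicate 2) to 2.28 points with the IDR limit, from 4.39 (without replicate 2) to 11.0 (without replicate 3) at 5000, and from 11.8 to 24.5 with all peaks. That from other noncoding genes ranged from 0.585 to 2.00, from 3.79 to 9.92 and from 10.6 to 21.2. In replicate 3 the difference from placements at 5000, −0.389 points, was 0.488 with 500 bp, 0.441 for unique sequences and 0.245 with any base of the peak. With the IDR limit its 0.163 points were −0.0259 with 100 bp, −0.000948 and −0.151 with 0.5 and 2 times as many peaks, and −0.0895 without promoter windows. The cause was not tested. The unknown depth limits what the absence of a summit shows.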
